A study of Homo sapiens with 27 samples.

Results

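Guanines listed as O6-methylguanine sites are described here in LN-229 glioblastoma cells and in naked DNA exposed to temozolomide (TMZ). Those taken had a cytosine as preceding base on the same strand, and so were the G of a CpG dinucleotide. Listed sites, also called marked, include background. Solvent controls without TMZ list CpG guanines as well, so a marked site need not carry the lesion. A site was taken where a library listed an autosomal G with a score of at least 30 and where the base before it could be read from any site that the 12 solvent-control libraries listed at that position, complemented when that site lay on the other strand. The base before was known for 857548 of 52922840 listed G sites in the 15 TMZ libraries, or 1.62%, because no genome sequence was used. Of these, 35167 followed C, 355355 followed A, 308824 followed G and 158202 followed T, so that C preceded 4.10% of the G sites with a known neighbour. The 35167 entries were 33949 distinct sites, since a site listed in several libraries counts in each. A library held 693 to 3561 of them in TMZ-treated cells and 2816 to 5906 in naked DNA.

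O6-MeG-seq enriches DNA fragments with O6-methylguanine by immunoprecipitation and reads the position of the lesion from the place where a high-fidelity polymerase stalls. LN-229 is an established human glioblastoma cell line. WT cells and MGMT-transfected cells, which carry the gene of the repair protein O6-methylguanine-DNA methyltransferase, received 1 mM TMZ, or 1% DMSO as solvent control, in 1 exposure or in 3 exposures spaced 4 h apart, with DNA collected 24 h from the start. Each of these 8 groups had 3 libraries. A further group of 3 libraries came from purified DNA exposed to 1 mM TMZ outside cells, with DNA of non-transfected WT, WT and MGMT-transfected cells for replicates 1, 2 and 3. Whether the transfected line was a single clone is not given in the sources used here, and nothing in the labels says that replicates came from separate cultures, so p-values measure the spread between these libraries, which may be technical.

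TMZ releases a methyldiazonium ion that methylates guanine mainly at N7 and, less often, at O6. The O6 adduct pairs with thymine during replication and is the lesion on which TMZ toxicity mainly rests. MGMT removes the methyl group in a single-step transfer to its own cysteine. Methylating agents of this kind react more readily with guanines that follow a purine than with those that follow a pyrimidine. CpG dinucleotides are depleted from most of the human genome, where their cytosines are usually methylated, and are dense in CpG islands at promoters, where they usually are not. Each CpG carries a guanine on both strands.

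Promoters with known sequence show how marked CpG guanines lie along a stretch of DNA. There the base before each G was read from the sequence, so these guanines need not be members. The rule knew the base before 3628 of 308672 marked promoter G sites. The RefSeq promoter table (GRCh38.p14) was searched for the protein-coding promoters in which most different CpG guanines were marked in the 15 TMZ libraries. The window of UCP2, which encodes a mitochondrial uncoupling protein, held 13 marked of 64 CpG guanines. SF1, which encodes a splicing factor that binds the branch point, had 12 of 80, and AQP5, which encodes an aquaporin water channel, had 11 of 98. AQP5 was 1 of 4 promoters with 11 and was taken by alphabetical order. Of the other guanines in the same windows 30 of 148 were marked in UCP2, 27 of 131 in SF1 and 18 of 152 in AQP5. Marks in these windows were thus not particular to CpG guanines. The part before the gene start is printed for SF1 and AQP5, from 5′ to 3′ on the gene's strand. A capital G is a CpG guanine marked on the printed strand, and a capital C is a CpG whose guanine on the other strand was marked. The SF1 stretch is chr11:64778543-64778792 on the minus strand, outside the annotated genes, and the AQP5 stretch is chr12:49961622-49961871 on the plus strand, inside the noncoding antisense gene AQP5-AS1. They are shown so that the scatter of the marked CpGs can be seen, and since marks chose these windows their counts are a description.
SF1: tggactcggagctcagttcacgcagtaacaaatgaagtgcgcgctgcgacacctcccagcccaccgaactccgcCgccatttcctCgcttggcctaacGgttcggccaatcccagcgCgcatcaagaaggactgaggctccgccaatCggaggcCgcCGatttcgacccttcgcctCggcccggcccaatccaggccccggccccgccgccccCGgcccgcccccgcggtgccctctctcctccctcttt
AQP5: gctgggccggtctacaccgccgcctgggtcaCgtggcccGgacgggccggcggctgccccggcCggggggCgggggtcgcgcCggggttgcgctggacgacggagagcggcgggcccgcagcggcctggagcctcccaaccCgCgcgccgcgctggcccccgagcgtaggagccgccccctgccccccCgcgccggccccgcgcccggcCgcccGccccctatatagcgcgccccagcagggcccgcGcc
The marks lay scattered over the CpGs of these windows. Of the capitals in the SF1 stretch, 3 are G and 8 are C, and the same counts hold for AQP5. No single library marked more than 3 of these guanines in any of the 3 promoters. In SF1 a CpG guanine was marked in 5 of 12 TMZ cell libraries, 3 of 3 naked DNA libraries and 0 of 12 solvent controls. In AQP5 this was so in 6 TMZ cell libraries, 3 naked DNA libraries and 1 solvent control. In UCP2 it was so in 5 TMZ cell libraries, 3 naked DNA libraries and 4 solvent controls. Among 20740 protein-coding promoter windows with a CpG, 12198 had at least 1 marked CpG guanine, which is 58.8%.

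The libraries listed 1347019 to 15745885 sites, and each position and strand appeared 1 time per library. G made up 32.6% to 64.1% of autosomal sites with a score of at least 30 in TMZ-treated cells and 67.8% to 70.9% in naked DNA. The library labelled MGMT solvent control after 1 exposure, replicate 1, stood apart with 43.7% G, above the 37.4% of the TMZ library of the same number, while the other 11 solvent controls had 19% to 27.8%. The highest of those 11 was replicate 1 of the WT solvent control after 1 exposure. Whether the label and content of the MGMT solvent control with 43.7% G are as stated could not be checked. The TMZ library of the same number was kept in the comparisons of exposures and genotypes. The main comparisons with solvent controls are therefore given with and without this library. Values with solvent counts subtracted are given only with it. Libraries also fell into 5 sets that shared more sites than the rest, and values within sets are given beside the main comparisons. Set 1 held replicate 1 after 1 exposure with replicate 1 of naked DNA, set 2 replicate 2 after 1 exposure with replicate 1 after 3, and set 3 replicate 3 after 1 exposure with replicate 2 and the TMZ libraries of replicate 3 after 3.

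C was the rarest base before a marked G in every TMZ library. In WT cells after 1 exposure the C share was 5.17%, 5.08% and 3.95% in replicates 1, 2 and 3, and after 3 exposures it was 4.22%, 3.61% and 3.69%. In MGMT cells it was 5.95%, 6.70% and 5.5% after 1 exposure and 4.69%, 4.07% and 3.89% after 3. Naked DNA had 4.29%, 3.51% and 3.36%. The MGMT libraries after 1 exposure were the highest of the 15 and did not overlap with the others. Before sites at bases other than G, C made up 20.3% to 22.6% in the same libraries. In solvent controls, with neighbours read from solvent controls outside the set, C preceded 7.01% to 11.1% of G sites and 20.4% to 21.9% of other sites, so C was also rare before G without TMZ. The number of CpGs among the known positions was not counted here. In promoters, where all neighbours are known from the sequence, rates per CpG guanine are given instead.

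**Figure D1:**
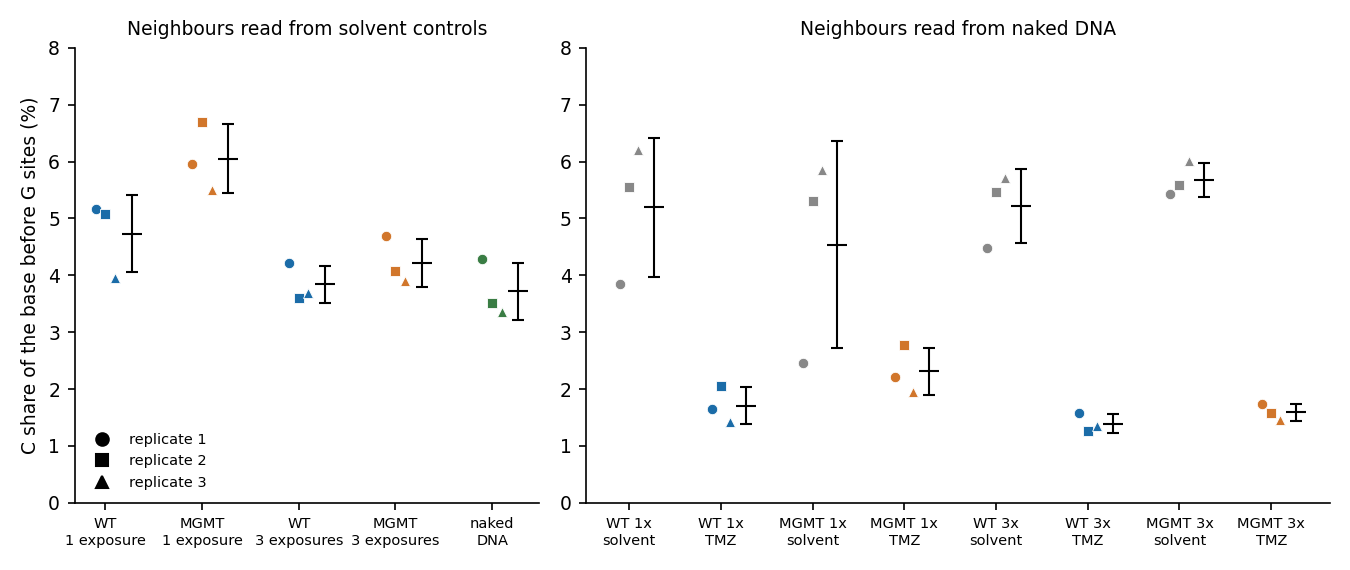
The vertical axis is the share of C among the bases before marked G sites, in percent, for each library by group, with marker shapes for replicates and bars for mean ± SD of 3 libraries. With neighbours from solvent controls (left) the MGMT libraries after 1 exposure lie highest, at 5.5% to 6.70%, and with neighbours from naked DNA (right) the lowest solvent control is MGMT replicate 1 after 1 exposure, at 2.46%.

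TMZ-treated cells were set against solvent controls with neighbours read from naked DNA, which belongs to neither group. This reference knows other positions, so its shares are lower than those above and the levels are not comparable between references. The C share of G sites ran from 1.25% through a median of 1.62% to 2.77% in the 12 TMZ libraries and from 2.46% through 5.51% to 6.2% in the 12 solvent controls. The lowest solvent control was the MGMT library named above, and it alone lay below the highest TMZ library. The means were 1.75% ± 0.434 and 5.16% ± 1.07 (SD, n = 12 each), a difference of -3.41 percentage points that held in 12 of 12 pairs of the same number (two-sided exact permutation over libraries inside each genotype and exposure number, p = 2.5e-05, 0.00025 adjusted over 20 comparisons). Without the MGMT library the difference was -3.65. The size moved with the sites used, to -1.75 with same-strand reference sites, -7.28 with opposite-strand ones, -6.86 with no minimum score and -5.26 with solvent controls outside the set as reference. Within sets 1, 2 and 3 it was -1.22, -3.16 and -4.28.

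The number of G sites after C was also set against the sites at other bases after C. The ratio of G sites to other sites after C, on the log2 scale, ran from -4.33 through -3.69 to -3.10 under TMZ and from -4.67 through -4.59 to -3.69 in solvent controls. It rose by 0.81 with TMZ (11 of 12 pairs, exact permutation p = 0.000225, adjusted 0.00112). The difference was 0.88 without the MGMT solvent control that stood apart, and it was -0.12, 0.72 and 1.19 within sets 1, 2 and 3, so that in set 1, which holds that library, the direction was opposite. Set against the mean of the same log2 ratio after the purines A and G, the ratio after C fell by 1.52 with TMZ, in 12 of 12 pairs and without overlap (exact permutation p = 1.25e-05, the smallest this design allows, adjusted 0.00025). It was -1.61 without that library, and -0.78, -1.38 and -1.84 within sets 1, 2 and 3. Sites after C thus increased less than sites after purines.

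**Figure D2:**
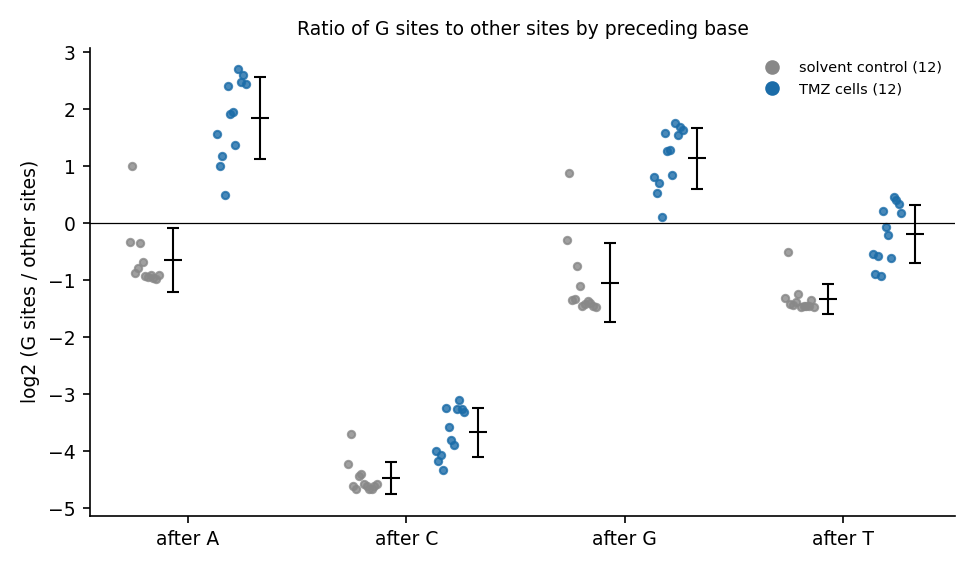
The vertical axis is the log2 ratio of G sites to sites at other bases after each preceding base, with neighbours read from naked DNA, for 12 solvent controls and 12 TMZ cell libraries (points) with mean ± SD (bars). After C all points lie below -3, and the TMZ mean is 0.81 above the solvent mean.

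In promoters every neighbour is known, and rates per available position can be given. The 33725 RefSeq windows of 300 bases, on autosomes other than chromosome 8, held 976400 guanines after C and 1711456 after G. Listed bases equalled the RefSeq base at 560806 of 560806 positions. Of the 308672 marked promoter G sites in the 15 TMZ libraries 9.63% followed C by the full sequence, while the rule, which knew 3628 of them, gave 12.3%. A marked rate is the share of such guanines that a library listed, here divided by the rate of positions other than G in the same library. CpG guanines were marked 1.61, 1.6 and 1.92 times as often as non-G positions in WT cells after 1 exposure and 2.76, 2.84 and 2.94 times after 3. In MGMT cells these ratios were 1.57, 1.30 and 2.10 after 1 exposure and 2.11, 3.35 and 2.63 after 3. Naked DNA had 5.11, 3.96 and 3.94, above all cell libraries. The solvent controls had a mean of 1.10 ± 0.392 (SD, n = 12), and the highest of them, at 2.20, was the MGMT library that stood apart.

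CpG guanines were therefore marked above the level of other bases in TMZ-treated cells. The log2 ratio to non-G was 1.10 ± 0.44 (SD), above 0 in 12 of 12 libraries (exact sign-flip permutation p = 0.000488, adjusted 0.000895). It rose by 1.02 over solvent controls, in 11 of 12 pairs (exact permutation p = 0.000112, adjusted 0.000895), or by 1.12 without the MGMT library. Within sets 1, 2 and 3 the difference was -0.08, 0.84 and 1.5.

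The purine contexts were marked much more. In TMZ-treated cells guanines after G stood at 6.15 ± 2.51 and those after A at 5.37 ± 2.04 times the non-G rate, while those after C stood at 2.23 ± 0.659 and those after T at 2.09 ± 0.537 (SD, n = 12). The CpG rate was 0.385 ± 0.0729 of the GpG rate in TMZ-treated cells, from 0.297 to 0.563, and 0.348 ± 0.0193 of it in naked DNA (n = 3). In solvent controls it was 0.991 ± 0.225, from 0.421 to 1.18. The lowest, inside the TMZ range, was the MGMT library that stood apart, WT replicate 1 after 1 exposure had 0.647, and without the former the mean was 1.04 ± 0.142. The log2 ratio of CpG to GpG was -1.40 ± 0.25 under TMZ and below 0 in 12 of 12 libraries (exact sign-flip permutation p = 0.000488, adjusted 0.000895). It was lower than in solvent controls by 1.34, a difference of -1.34 seen in 11 of 12 pairs (exact permutation p = 3.75e-05, adjusted 0.00025), and of -1.44 without the MGMT library. Within sets 1, 2 and 3 it was -0.32, -1.34 and -1.70.

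Against the other pyrimidine the picture differed. The CpG rate was 1.06 ± 0.0931 times the TpG rate in TMZ-treated cells, from 0.959 to 1.24, and 1.06 ± 0.0591 times in naked DNA. The log2 ratio of 0.07 ± 0.12 was above 0 in 8 of 12 libraries and did not pass the test (exact sign-flip permutation p = 0.0664, adjusted 0.0812). With TpG in place of GpG the difference from solvent controls turned to 0.18 (exact permutation p = 0.0142, unadjusted). Without the MGMT solvent control it was 0.20 (exact permutation p = 0.00795, unadjusted), and within sets 1, 2 and 3 it was 0.03, 0.06 and 0.25. Over autosomal sites with a known neighbour, by contrast, the log2 ratio of G to other sites after C fell relative to that after T. It fell by 0.33 with TMZ, with neighbours from naked DNA (exact permutation p = 1.25e-05, unadjusted). From 1 to 3 exposures it fell by 0.21, with neighbours from solvent controls (exact permutation p = 0.01, unadjusted). This ratio compares counts of listed sites and is not a rate per available position. Purine contexts gave the same direction in both measurements, and T did not.

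**Figure D3:**
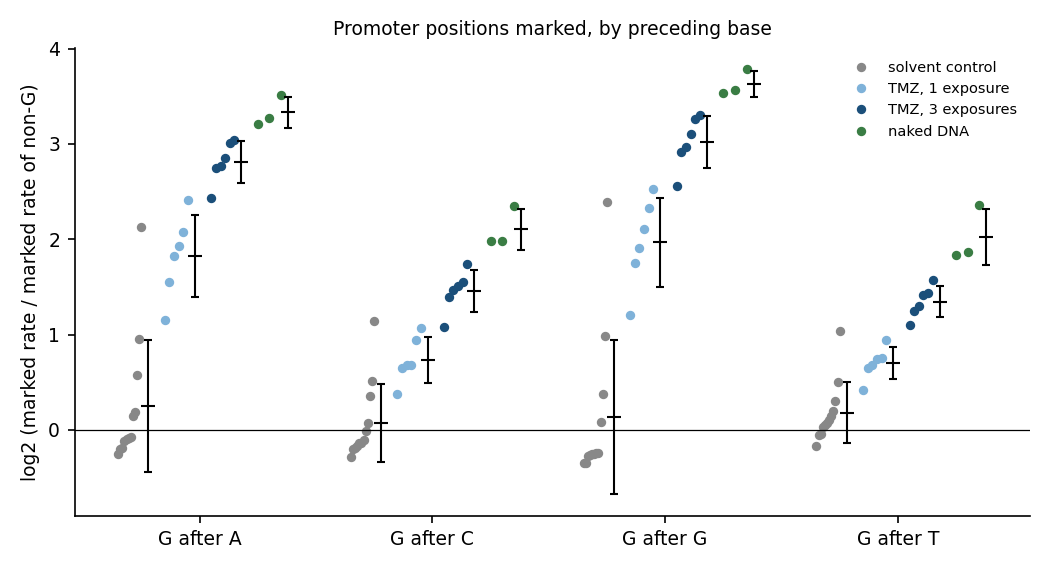
The vertical axis is the log2 ratio of the marked rate of promoter guanines, by preceding base, to the rate of non-G positions in the same library, with 1 point per library (12 solvent controls, 6 TMZ libraries after 1 exposure, 6 after 3 and 3 of naked DNA) and bars for mean ± SD. In the TMZ and naked DNA groups, guanines after C and after T lie near each other and below those after A and G.

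Promoters were also split into CpG-rich ones, with at least 50% GC and an observed to expected CpG ratio of at least 0.6, and the others. The CpG rate was 0.383 ± 0.0666 of the GpG rate in the 15872 CpG-rich windows and 0.378 ± 0.121 in the 17853 others (SD, n = 12 TMZ cell libraries). The log2 difference of 0.05 ± 0.19, positive in 10 of 12 libraries, did not pass the test (exact sign-flip permutation p = 0.367, adjusted 0.403). It was 0.12 without the replicate 2 libraries (exact sign-flip permutation p = 0.0469, unadjusted) and -0.0027 without the replicate 3 libraries. Cytosine methylation itself was not measured in these libraries.

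Marked rates of promoter CpG guanines also differed by the base after the guanine. On the log2 scale relative to non-G, TMZ-treated cells had 0.54 ± 0.42 at CGA, 0.98 ± 0.48 at CGC, 1.43 ± 0.45 at CGG and 0.77 ± 0.37 at CGT (SD, n = 12). In naked DNA these were 1.55, 1.87, 2.44 and 2.14, with CGG highest again. CGG exceeded the mean of CGA, CGC and CGT by 0.65 ± 0.09 in log2, in 12 of 12 TMZ libraries (exact sign-flip permutation p = 0.000488, adjusted 0.000895). In TMZ-treated cells the mean rate was highest with a following G after T and A as well. After G, GGT stood at 1.74 ± 0.231 and GGG at 1.67 ± 0.169, which overlapped, and in naked DNA GGG was the higher, at 1.91 against 1.75. On the same scale, relative to the mean of the 16 contexts in TMZ-treated cells, TGG was at 0.755 against 0.388 to 0.562 for the other TGN, AGG at 1.61 against 1.04 to 1.41 for the other AGN and CGG at 0.746 against 0.406 to 0.547. The same contrast within CGN was 0.57 ± 0.07 in naked DNA and 0.37 ± 0.21 in solvent controls, and its lowest value there was 0.05. Over solvent controls all 4 contexts rose, by 0.70 at CGA, 1.21 at CGC, 1.09 at CGG and 0.57 at CGT (exact permutation tests adjusted over 16 contexts, p = 0.00115, 0.000164, 0.000164 and 0.000738). Without the MGMT solvent control the rises were 0.76, 1.32, 1.20 and 0.63. Within set 1 none of the 4 was higher under TMZ, with differences of -0.27, -0.06, -0.0076 and -0.14 in the same order, while they were 0.69, 0.93, 0.92 and 0.38 within set 2 and 0.97, 1.75, 1.58 and 0.97 within set 3. Of all 16 contexts 16 rose, or 100%, so the call itself is nothing particular to CpG.

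**Figure D4:**
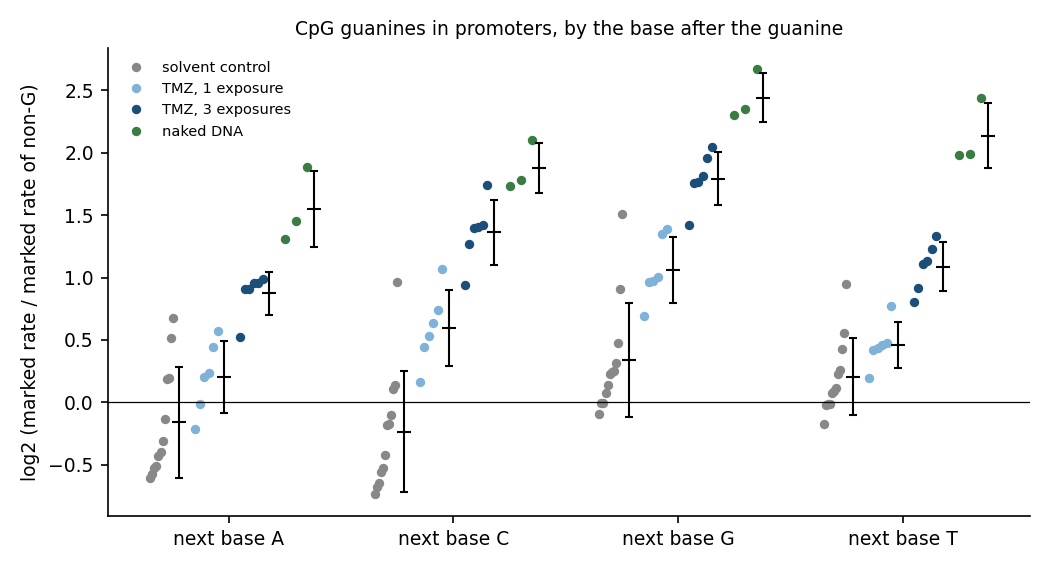
The vertical axis is the log2 ratio of the marked rate of promoter CpG guanines to the rate of non-G positions, split by the base after the guanine, with 1 point per library and bars for mean ± SD. CGG has the highest mean in TMZ-treated cells, 1.43 over both exposure numbers, and in naked DNA, 2.44.

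Over all autosomal members the following base was known for few members, 33 to 135 in a TMZ cell library and 97 to 206 in a naked DNA library. The mean shares in TMZ-treated cells were 24.9% CGA, 23.3% CGC, 26.8% CGG and 25.0% CGT, with SDs of 4.30 to 6.09 percentage points over 12 libraries. G sites after other bases had 24.2%, 22%, 26.6% and 27.2% for the same following bases. The base before the CpG was T in 36.2% ± 2.86 of 949 members in which it was known, against 30.3% ± 0.775 before the other dinucleotides, and it was A in 23.1%, C in 21.9% and G in 18.8%. These shares were not tested.

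After 3 exposures members were more numerous relative to other sites and a smaller share of all G sites. The log2 ratio of G to other sites after C rose by 0.66 over 1 exposure, from -2.49 ± 0.15 to -1.83 ± 0.13 (SD, n = 6 each), in 6 of 6 pairs and without overlap (exact permutation inside each genotype, p = 0.005, which no arrangement could undercut, adjusted 0.0167). In promoters the log2 ratio of CpG to non-G rose by 0.72, also without overlap (exact permutation p = 0.005, adjusted 0.00786). All 4 CGN contexts rose, by 0.63 to 0.77, among 16 of 16 contexts or 100%. The C share fell from 5.39% ± 0.923 to 4.03% ± 0.397, a difference of -1.36 percentage points in 6 of 6 pairs (exact permutation p = 0.01, adjusted 0.025). Relative to purines the log2 ratio after C fell by 0.46 (exact permutation p = 0.01, adjusted 0.025), and in promoters the log2 ratio of CpG to GpG fell by 0.32 (exact permutation p = 0.015, adjusted 0.03), or by 0.17 without the replicate 2 libraries.

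The share of G among all sites moved with this comparison. It was 32.6% to 52.6% after 1 exposure and 52.6% to 64.1% after 3, and its part in the lower C share was not tested. Counts of G sites in the matching solvent controls were also subtracted for each pair of neighbouring bases, scaled by the numbers of sites at other bases. No listed site was removed in this step, and neighbours were read from naked DNA. The direction of the C share then turned, to 0.19 percentage points higher after 3 exposures (exact permutation p = 0.01). Without the subtraction the same reference gave -0.52. The counts subtracted included those of the MGMT solvent control that stood apart. When sites listed in any solvent control were instead left out, with neighbours read from solvent controls, the difference was -1.31 (exact permutation p = 0.01). Within set 2 the difference by the original rule was -1.44 and within set 3 it was -0.91. The log2 ratio after C differed by 0.72 and 0.57 within these sets, and relative to purines it differed by -0.48 and -0.28. The promoter ratio to non-G differed by 0.74 and 0.54 and that to GpG by -0.46 and -0.18.

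MGMT-transfected cells had a higher C share than WT cells under TMZ, 5.14% ± 1.11 against 4.29% ± 0.684 (SD, n = 6 each). The difference of 0.85 percentage points held in 6 of 6 pairs (exact permutation test within exposure number, p = 0.015, adjusted 0.03), although the ranges overlapped. By pairs of the same number it was 1.32 ± 0.46 after 1 exposure and 0.38 ± 0.15 after 3 (SD, 3 pairs each). Between exposure numbers these did not pass (exact permutation p = 0.1, the smallest possible, adjusted 0.217). Within sets 1, 2 and 3 the difference between MGMT and WT cells was 0.79, 1.05 and 0.74. MGMT libraries had a lower share of G sites than the WT library of the same number in 6 of 6 pairs, and the part of this in the C share was not tested. With neighbours read from naked DNA the difference between MGMT and WT cells was 0.40 (exact permutation p = 0.025). With scaled solvent counts subtracted as well it was 0.12 (exact permutation p = 0.05). The counts subtracted again included those of the MGMT solvent control that stood apart. When sites listed in any solvent control were instead left out, the difference between MGMT and WT cells was 0.825 (exact permutation p = 0.015). With neighbours read from opposite-strand sites it was 0.44, and with solvent controls outside the set it was 0.83, both at p = 0.055 by the exact permutation test.

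Of the other measures of CpG guanines, the ratio after C relative to purines also passed between MGMT and WT cells. It was higher by 0.27 in MGMT cells, with an adjusted p at the threshold itself (6 of 6 pairs, exact permutation p = 0.03, adjusted 0.05). Within sets 1, 2 and 3 the difference was 0.22, 0.31 and 0.25. The call was lost with opposite-strand reference sites (0.21, exact permutation p = 0.075), with the reference outside the set (0.26, exact permutation p = 0.055) and with T in place of purines (0.11, exact permutation p = 0.12). The log2 ratio of G to other sites after C was -2.22 ± 0.40 in MGMT and -2.09 ± 0.36 in WT, which differed by -0.13 (exact permutation p = 0.1, adjusted 0.143), and by -0.19, -0.22 and -0.06 within sets 1, 2 and 3. The promoter log2 ratio of CpG to non-G differed by -0.09 (exact permutation p = 0.515), and by -0.03, -0.34 and 0.07 within these sets. In promoters the log2 ratio of CpG to GpG was higher by 0.21, which did not pass (6 of 6 pairs, exact permutation p = 0.065, adjusted 0.1), and by 0.32, 0.21 and 0.18 within sets 1, 2 and 3. Of the 16 promoter contexts 0 were called, or 0%, and 3 had an unadjusted p of at most 0.05 (18.8%). CGA was among these 3, at -0.29 (exact permutation p = 0.02, adjusted 0.256).

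Naked DNA had more C-preceded G sites relative to other sites than WT cells under TMZ. The log2 ratio was -1.09, -1.51 and -1.57 in its 3 libraries and ran from -2.54 to -1.74 in the 6 WT TMZ cell libraries. These 6 pool 1 and 3 exposures in all tests of this comparison. The ratio was -2.40, -2.54 and -2.29 after 1 exposure and -1.77, -1.74 and -1.80 after 3, which lay nearer to naked DNA. Naked DNA did not overlap with the 6 libraries, and the difference from them was 0.70 (exact permutation p = 0.0238, adjusted 0.0433, with 0.0119 the smallest p of this design). In promoters the log2 ratio of CpG to non-G was higher by 0.97 (exact permutation p = 0.0238, adjusted 0.0327), and 16 of 16 contexts were higher, or 100%. The C share and the promoter ratio to GpG did not pass the test. The C share was 3.72% ± 0.499 in naked DNA and 4.29% ± 0.684 in WT cells (difference -0.57, exact permutation p = 0.238), and the promoter log2 ratio of CpG to GpG was -1.52 ± 0.08 and -1.5 ± 0.18 (difference -0.02, exact permutation p = 0.81). Relative to purines the log2 ratio after C differed by -0.19 (exact permutation p = 0.31), while relative to T the difference was -0.47 (exact permutation p = 0.0119, unadjusted). Within set 1, the only one with naked DNA and WT cells, 1 library of each gave 1.31 for the log2 ratio after C, 1.67 for the promoter ratio to non-G and -0.88 for the C share. Naked DNA replicates 2 and 3 shared a set with no cell library. Naked DNA of replicate 3 came from MGMT-transfected cells and is counted with the others.

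Across the 16 contexts of the whole genome, as shares of G sites with both neighbours known, 0 of 16 passed an adjusted p of 0.05 in the comparisons of exposures, genotypes and naked DNA, or 0% in each. At an unadjusted exact permutation p of at most 0.05 there were 8 for exposures (50%), 3 for genotypes (18.8%) and 0 for naked DNA (0%). CGA was 1.35% after 3 exposures and 2.37% after 1, CGC 1.38% and 1.96%, CGT 1.48% and 2.08%, and CGG 1.73% and 2.08%. The adjusted p was 0.09 for the 3 former and 0.385 for CGG.

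A CpG offers a guanine on each strand, and few CpGs had marks on both in the same library. The number expected if the strands were marked independently was not computed. The counts therefore do not show whether a mark on 1 strand goes with, or without, a mark on the other. The guanine on the opposite strand was marked for 61 of 23483 members in TMZ-treated cells, a mean of 0.236% ± 0.124 per library (SD, n = 12), and for 67 members in naked DNA, of which 56 were in replicate 1. After A, G and T, where the opposite neighbour is no guanine, an opposite-strand mark was present for 0.123%, 0.131% and 0.117% of sites. The opposite-strand share was 0.282% ± 0.0973 after 3 exposures and 0.191% ± 0.139 after 1 (exact permutation p = 0.18), and 0.190% in MGMT against 0.283% in WT cells (exact permutation p = 0.175). A cell library held at most 15 such members. The exposure difference of 0.09 percentage points was 0.161 with same-strand reference sites (exact permutation p = 0.035) and 0.178 with the reference outside the set (exact permutation p = 0.05), and it turned to -0.127 with opposite-strand reference sites. In promoters both guanines of a CpG were marked 17 times among 17759 marked CpG guanines in TMZ-treated cells, 28 times among 11890 in naked DNA and 1 time among 3671 in solvent controls.

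Members lay near gene ends more often than purine-preceded sites. Within 1 kb of either end of a protein-coding gene lay 3.94% to 7.34% of C-preceded G sites in the 12 TMZ cell libraries, with a median of 6.42%, against 2.49% to 3.55% of purine-preceded ones. The means were 6.05% ± 1.07 and 3.09% ± 0.318 (SD, n = 12), and the difference of 2.96 percentage points held in 12 of 12 libraries without overlap (exact sign-flip permutation p = 0.000488, adjusted 0.00195). It was 0.716 points with no minimum score (exact sign-flip permutation p = 0.00146), a value several times smaller. T-preceded sites were at 2.13% ± 0.349. In naked DNA 6.55%, 7.17% and 8.10% of C-preceded sites lay there, against 2.67% to 2.78% of A-preceded and 3.69% to 4.28% of G-preceded ones. The number of CpGs at gene ends was not counted, as no genome sequence was used, and its part in the excess was not tested.

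**Figure D5:**
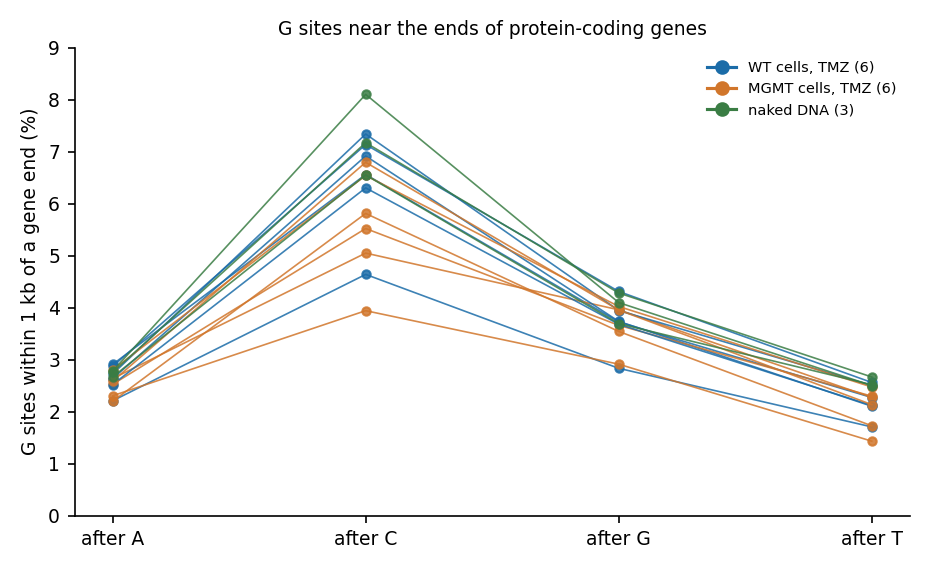
The vertical axis is the percentage of G sites within 1 kb of an end of a protein-coding gene, by preceding base, with a line joining the 4 values of each library (6 WT and 6 MGMT TMZ cell libraries and 3 of naked DNA). Sites after C are highest in each library, from 3.94% to 8.10%.

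The C share also varied between chromosomes. In TMZ-treated cells it was highest on chromosome 16, at 6.76% ± 2.13 (SD, n = 12), followed by chromosome 19 at 6.36% ± 1.19, chromosome 17 at 6.15% ± 0.982 and chromosome 21 at 6.0% ± 2.09. It was lowest on chromosomes 8, 5 and 4, at 4.00%, 4.03% and 4.08%. In naked DNA chromosomes 22, 17, 16 and 19 were highest, at 5.31%, 5.15%, 5.13% and 5.07%, and chromosome 3 was lowest at 3.17%. Chromosomes 16, 17 and 19 thus stood among the 4 highest in both. The SD between libraries exceeded the gaps between neighbours in this order for each of the chromosomes named. This SD includes the C share of each library as a whole. Chromosomes were not compared within libraries, so the order among them was not tested. Members were split evenly over the strands, with 47.1% to 52.8% on the plus strand per TMZ cell library.

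Few members were listed in more than 1 library. Of 33949 distinct sites 32834 were in 1 library, 1044 in 2, 53 in 3, and 3 in 7, the most seen. The share found in at least 2 of the 15 libraries was 3.28% after C, 3.56% after T, 7.42% after A and 9.09% after G. Libraries of the same set share more sites. The share found in at least 2 sets was 2.31%, 2.55%, 5.54% and 6.77% in the same order. Of the distinct C-preceded sites in naked DNA, 4.44% were also listed in TMZ-treated cells. This share was 4.78% after T, 9.86% after A and 12% after G. These shares depend on how many sites each library listed and are given as a description.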

How the data were processed

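The deposited files of 27 libraries list chromosome, 0-based position, strand, base and a score from 0 to 42 for each site. The authors' score, per the values of the deposited files, has no stated meaning in the sources used here, and each position and strand appears 1 time per library, so the files are site lists and give no read depth. The submitters' processing notes name FastQC 0.11.9, Trimmomatic 0.38 and 0.39, cutadapt, Bowtie2 2.3.5.1, GATK 4.2.0.0, SAMtools 1.12, bedtools 2.29.2 and the builds GRCh38 and hg38, with no order or parameters.

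Autosomal G sites with a score of at least 30 were used. For TMZ against solvent, neighbours came from naked DNA, and for the other comparisons from solvent controls. Groups were compared by exact permutation over libraries within strata and contrasts within libraries by exact sign flips, two-sided, with Benjamini-Hochberg adjustment over 20 tests, over 11 tests added after seeing the data, or over 16 contexts. The procedure was tested on simulated data. The 4 CGN contexts were named, as were the 3 autosomal protein-coding promoters (not chromosome 8) with most marked CpG guanines. Alternatives were the score minimum, the reference for neighbours, comparators, left-out libraries and a replicate block. The members, lists and tests were chosen with earlier results of these data known. Promoter sequences and gene positions came from RefSeq (GRCh38.p14). Python 3.11.15, NumPy 2.4.6, pandas 2.3.3, SciPy 1.17.1, Numba 0.67.0, PyArrow 21.0.0 and Matplotlib 3.10.9 were used.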

Additional observations from a re-analysis of the deposited data

Results flagged for a closer look

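Among the 6 TMZ cell libraries after 3 exposures, WT replicate 2 lay far from the others in the promoter log2 ratio of CpG to GpG, at -1.75 against -1.48 to -1.56. Its gap to the nearest library exceeded Dixon's critical value of 0.625 of the range. In all 20 groups were examined in this way, and chance alone is expected to single out about 1 of them.

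The TMZ effect on the log2 ratio of G to other sites after C differed between exposure numbers by 0.92. TMZ minus solvent was 1.27 ± 0.26 after 3 exposures and 0.35 ± 0.46 after 1 (SD, n = 6 differences between libraries of the same number each, exact permutation p = 0.005, the smallest possible, adjusted 0.065 over 13 such differences). For the promoter log2 ratio of CpG to GpG the difference was -0.67, from -1.67 ± 0.18 and -1.0 ± 0.65 (exact permutation p = 0.025, adjusted 0.163). Neither passed after adjustment. These values rest on matching libraries by replicate number, which was not taken as pairing them, and after 3 exposures the replicate 3 solvent controls lie in another set than the TMZ libraries. The MGMT solvent control with 43.7% G belongs to the groups after 1 exposure. Without it and the TMZ library of the same number the differences were 0.75 (exact permutation p = 0.01, unadjusted) and -0.44 (exact permutation p = 0.035, unadjusted).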

How the results depend on the processing

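Of the main summaries under alternative settings, 240 values kept direction and side of the threshold, 39 were weaker, 7 stronger and 10 reversed, and of single contexts 111, 0, 3 and 18. Leaving out replicate 1, 2 or 3 gave 11 of the weaker values each. There the exact tests for exposures, genotypes and naked DNA could not reach the threshold. A call could only be lost there, and a value without a call could only stay the same or reverse. With TpG as comparator the promoter ratio turned to 0.18 for TMZ against solvent, 0.0743 for 3 exposures against 1 and 0.0250 for naked DNA. The C share of 3 exposures against 1 turned to 0.188 with neighbours read from naked DNA and scaled solvent counts subtracted. The opposite-strand share for exposures was -1.25 with no minimum score, -0.127 with opposite-strand reference sites, 0.161 with same-strand ones and 0.178 with the reference outside the set, and for genotypes it was 0.0377 with no minimum score. For MGMT against WT, the C share was 0.442 with opposite-strand reference sites and 0.832 with the reference outside the set, and the ratio after C relative to purines was 0.21, 0.26 and, with T as comparator, 0.11, and these 5 missed the threshold. That ratio was -0.47 for naked DNA with T as comparator, which passed. Of the 16 contexts 3 were called for exposures with no minimum score and 2 for genotypes with reference sites that had a score. The causes were not tested.

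Single contexts reversed as follows, in percentage points. For exposures CGT was 0.674 with opposite-strand reference sites. With neighbours read from naked DNA and scaled solvent counts subtracted CGT was 0.0033 and CGC was 0.0638. For genotypes CGA and CGC were -0.697 and -0.175 with opposite-strand reference sites, CGA, CGC and CGT were -0.165, -0.0955 and -0.0452 with the naked DNA reference, and -0.292, -0.280 and -0.0257 after subtraction. For naked DNA CGG and CGT were 0.0990 and 0.251 with no minimum score and 0.116 and 0.137 with opposite-strand reference sites, and CGG was 0.0052 without sites found in solvent controls.

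Leaving out each replicate number in turn leaves exact tests that cannot go below 0.0556 for exposures and genotypes or 0.0667 for naked DNA, so no call was possible there. For exposures the C share ran from -1.58 to -1.02, the log2 ratio after C from 0.54 to 0.74, that relative to purines from -0.54 to -0.35, the promoter ratio to GpG from -0.43 to -0.17 and that to non-G from 0.54 to 0.85. For genotypes the C share ran from 0.753 to 0.960 and the ratio relative to purines from 0.24 to 0.30. For naked DNA the ratio after C ran from 0.55 to 0.81, the promoter ratio to non-G from 0.81 to 1.08, that to GpG from -0.0426 to 0.0143, the opposite-strand share from -0.0666 (without replicate 1) to 0.287 and the CGG share from -0.382 to 0.185. Calls among 16 promoter contexts fell to 0 for exposures and naked DNA, and for TMZ against solvent controls they ran from 14 to 16. The difference between CpG-rich and other promoters ran from -0.0027 to 0.12.

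Replicate numbers were not taken as pairing the libraries, which would need every pair to correlate above 0.1. Deviations of the same number did so in 2 of 6 pairs for exposures, 5 of 6 for genotypes and 6 of 12 for TMZ and solvent, and a library correlated best with its own number in 3 of 12, 9 of 12 and 14 of 24 cases. Under a replicate block the promoter ratio for exposures stayed at -0.32 but missed the threshold (exact permutation p = 0.0625), that for genotypes stayed at 0.21 and passed (exact permutation p = 0.0312), and 20 other summaries kept their call. Leaving out the MGMT solvent control with 43.7% G, or set 1, both chosen after seeing the data, kept the calls of 6 and 5 summaries for TMZ against solvent. The gene-end difference of 2.96 was 0.716 with no minimum score and 4.12 with ends of 2 kb. No genome sequence was used, so 1.62% of G sites had a known neighbour, and read depth is unknown.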
